A study of Mus musculus with 4 samples.

Results

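The 9 genes followed here store, release, import or export iron, and were chosen by name from the 16798 genes of the count table: Fth1, Ftl1, Ncoa4, Slc40a1, Cp, Tfrc, Slc11a1, Slc11a2 and Hmox1. All 9 were in the table. The rule that lists them uses no measured value, but they were chosen with earlier results of these data known. They were read in single-cell RNA profiles of CD45+ (pan-leukocyte marker) cells sorted from the cortex of mice 18 months old. ADAM mice carried the APP/PS1 transgenes, which lead to amyloid deposits, and lacked both Axl and Mertk (Axl-/- Mertk-/-), a pair of receptor tyrosine kinases of the TAM family. AD mice carried the APP/PS1 transgenes with no deletion named in the labels, so both groups carry the transgenes and no mice without them are compared here. Each genotype had 2 libraries (ADAM 1 and ADAM 2, AD 1 and AD 2), and each library pooled 2 cortices. The promoter of the transgenes, the sex of the mice and the cells in which the receptors were lost are not named in the labels. Where a difference between genotypes is described, the loss of Axl and the loss of Mertk cannot be told apart.

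Cells keep iron in ferritin, a shell of heavy and light chains, and send iron out through ferroportin, the product of Slc40a1. Macrophages and microglia also take up iron in haem and in dying cells, free it with haem oxygenase 1 and carry it out of endosomes and lysosomes. When iron is scarce, iron regulatory proteins bind a hairpin in certain mRNAs, the iron responsive element, which blocks translation when it lies in the 5′ untranslated region (UTR) and protects the mRNA from decay when it lies in the 3′ UTR.

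The hairpins are shown because they mark members known to be regulated by iron after transcription, a layer that mRNA counts see only in part. The search read the transcript strand of GENCODE vM21 transcripts (GRCm38/mm10) for a bulged C, 5 paired bases and the loop CAGTGN, with any base but G at N, where all 5 upper pairs and at least 4 of the 5 lower pairs formed. Such a hairpin lay in a UTR of 4 of the 9 members and of 14 of 21877 protein-coding genes (0.064%). Hairpins with a broken upper stem are not found, so the lack of a match does not show that a member lacks the element. Capitals mark the loop.
Fth1 5′ UTR, chr19:9982732-9982760, plus strand: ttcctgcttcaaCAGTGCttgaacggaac
Ftl1 5′ UTR, chr7:45459779-45459807, minus strand: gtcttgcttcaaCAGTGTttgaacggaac
Slc40a1 5′ UTR, chr1:45925465-45925493, minus strand: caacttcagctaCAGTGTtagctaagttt
Tfrc 3′ UTR, chr16:32631219-32631247, plus strand: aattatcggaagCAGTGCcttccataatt
Tfrc 3′ UTR, chr16:32631598-32631626, plus strand: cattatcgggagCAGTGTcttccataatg
Tfrc 3′ UTR, chr16:32631663-32631691, plus strand: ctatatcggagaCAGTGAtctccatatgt
Tfrc 3′ UTR, chr16:32631710-32631738, plus strand: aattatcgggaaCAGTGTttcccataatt
The ferritin and ferroportin mRNAs carried a single match each, in the 5′ UTR, and the Tfrc mRNA carried 4, all in the 3′ UTR. A match is a stretch of letters, and binding was not measured.

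Libraries held 3241 to 4543 cells and 14963857 to 29831947 unique molecular identifiers (UMIs, which count captured mRNA molecules), and levels are CPM, that is UMIs scaled to the total of the same cell set and library. The authors' deposited annotation put 14628 of 15451 cells in 9 classes, and 9077 microglia in 7 numbered states. The summed level of 5 microglial markers was highest in the microglia, at 12722 and 10044 CPM in ADAM and 13073 and 12417 CPM in AD. It was at most 410 CPM in T and NK cells, but reached 5869 CPM in macrophages, 4811 CPM in neutrophils, 4414 CPM in proliferating cells and 4202 CPM in B cells, and the part of that RNA in the member levels of these classes was not tested. Axl stood at 5.37 and 7.22 CPM in ADAM microglia, against 104 and 67.1 CPM in AD microglia. Mertk stood at 246 and 274 CPM in ADAM microglia and at 274 and 296 CPM in AD microglia. Reads lie near the 3′ end and the labels do not say which part of Mertk is deleted, so its counts do not check the label. ADAM 2 stands apart in other cells' RNA. Haemoglobin genes reached 4498 CPM in its microglia, against 0.612 CPM in ADAM 1 and at most 0.138 CPM in the AD libraries. This RNA lay mainly in state 2. Erythroid markers (the haemoglobin genes and Alas2) summed to 170234 CPM in ADAM 2 state 2. They summed to 20.6 CPM in ADAM 2 microglia without state 2. In ADAM 2 microglia 6 neutrophil markers summed to 777 CPM, against 14.9 CPM in ADAM 1, 17.1 in AD 1 and 54.0 in AD 2. AD 1 stands apart in choroid plexus markers, which summed to 693 CPM in its microglia, against 1.24 CPM in AD 2 and 0.748 and 69.6 CPM in the ADAM libraries, and to 61628 CPM in its state 2. AD 1 also held 209 of the 216 cells marked as microglia and T cell doublets, which are left out, and 24 barcodes occurred in more than 1 library.

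Ferritin mRNA differed several-fold between microglial states. Fth1, the heavy chain that oxidizes iron for storage, was highest in state 4, at 22234 and 33019 CPM in ADAM and at 22911 and 26779 CPM in AD. State 3 followed with 14811 and 15846 CPM in ADAM and 13705 and 16888 CPM in AD. State 5 stood at 10396 and 10062 CPM in ADAM and at 9757 and 10221 CPM in AD. In state 0, the most numerous state with 4836 cells, Fth1 was lower, at 6245 and 7364 CPM in ADAM and at 5192 and 5985 CPM in AD. All 4 libraries therefore placed state 4 above state 3, state 3 above state 5 and state 5 above state 0. Over the 4 libraries Fth1 was 4.21-fold higher in state 4 than in state 0 and 1.64-fold higher in state 5 than in state 0, with single libraries at 3.56 to 4.48 and 1.37 to 1.88. In the small state 6 Fth1 stood at 14374 and 13395 CPM in ADAM and at 12411 and 13080 CPM in AD, above state 5 in all 4 libraries. State 1 overlapped state 0, and state 2 lay below state 0 in all 4 libraries. State 2 held 96012 to 343004 UMIs from 78 to 244 cells in a library. State 0 held 3731848 to 13752148 UMIs from 766 to 2004 cells. Erythroid markers took 170234 CPM of state 2 in ADAM 2 and choroid plexus markers 61628 CPM in AD 1. The part of depth and of this RNA in the lower Fth1 of state 2 was not tested. States and classes were set by clustering on all genes of these cells, so differences between them are descriptions here and carry no test.

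Ftl1, the light chain that helps form the iron core, had the same order of states 4, 3, 5 and 0 in all 4 libraries. It stood at 8718 and 11918 CPM in ADAM state 4 and at 10483 and 10542 CPM in AD state 4, against 2961 and 3000 CPM in ADAM state 0 and 2548 and 2774 CPM in AD state 0. The chains parted in state 6, where Ftl1 stood at 4259 and 4215 CPM in ADAM and at 3768 and 3150 CPM in AD, 0.798-fold state 5 and below it in all 4 libraries, while Fth1 was 1.32-fold state 5. In state 1 Ftl1 stood at 3225 and 2997 CPM in ADAM and at 2268 and 2351 CPM in AD, above state 0 in ADAM 1 and below it in the other libraries. A processed copy, Ftl1-ps1, was counted at 24.5 and 26.0 CPM in ADAM microglia and at 24.1 and 25.9 CPM in AD microglia, and how counting split reads between the copy and the gene is not stated, so the level of Ftl1 is uncertain to that extent. Among the 9 sets ordered (5 states and 4 classes with at least 20 cells in each library), both ferritin chains were lowest in T and NK cells, where Fth1 stood at 2275 and 1941 CPM in ADAM and at 1737 and 1715 CPM in AD. Even there a UMI of Fth1 was found in 97.7% to 99.9% of the cells of a library.

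Ncoa4, the receptor that takes ferritin to the lysosome for breakdown, ran against ferritin between states 5 and 0. It stood at 32.5 and 37.8 CPM in ADAM state 5 and at 39.7 and 35.1 CPM in AD state 5, against 55.7 and 52.5 CPM in ADAM state 0 and 59.5 and 57.1 CPM in AD state 0. All 4 libraries were lower in state 5, and state 0 was 1.55-fold higher (1.39 to 1.71). Its highest level among the 9 sets ordered was in macrophages, at 78.8 and 91.6 CPM in ADAM and at 62.0 and 83.7 CPM in AD.

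**Figure D1:**
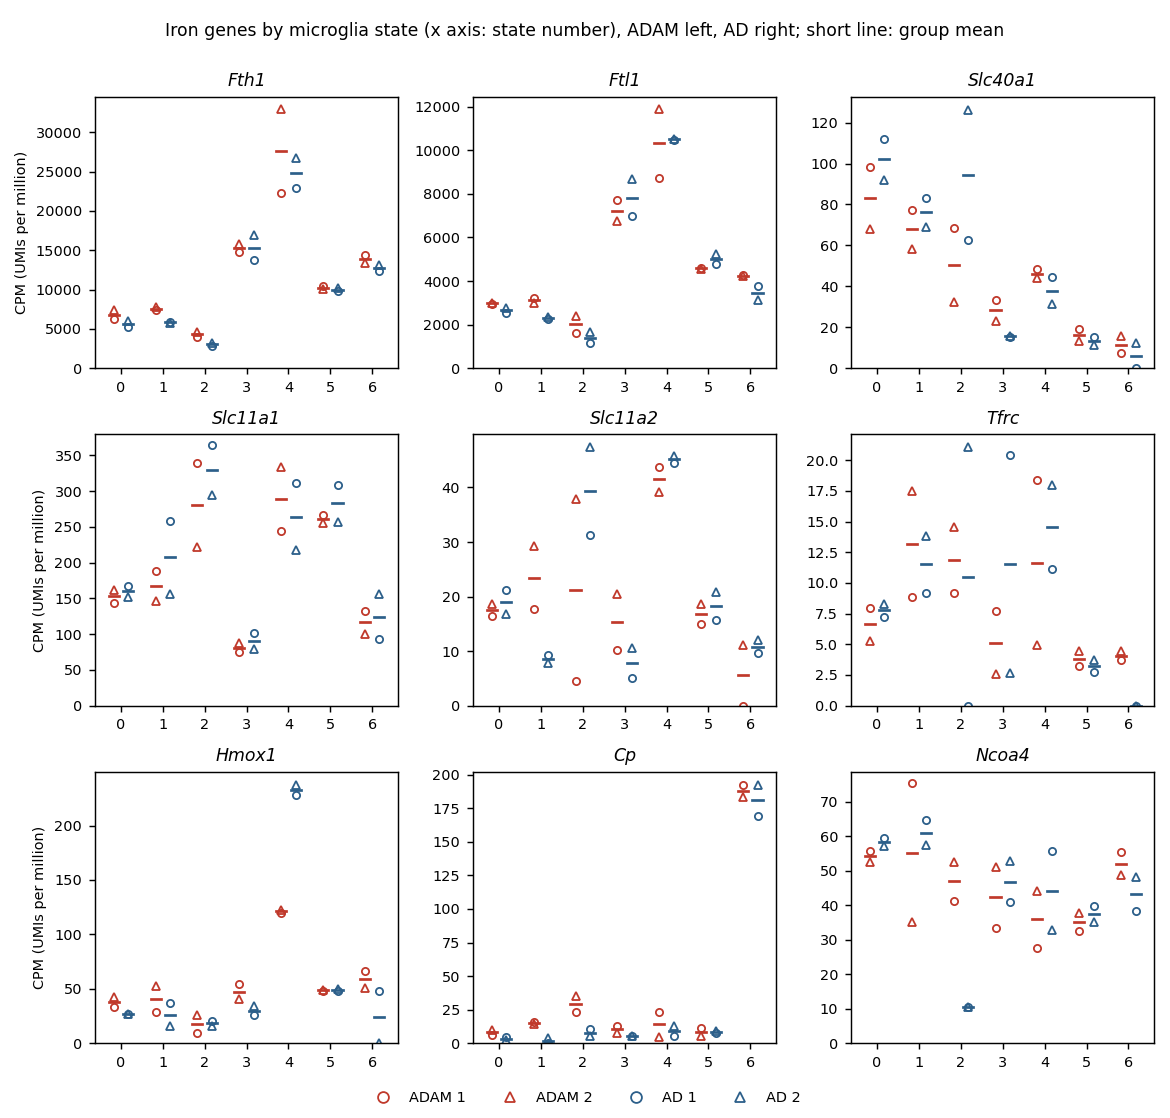
Level of each member in the 7 microglial states (x axis, state number) in CPM (y axis, linear, own scale per gene), with ADAM libraries left of AD libraries, a point per library and a short line at the mean of 2. Ferritin chains and Hmox1 are highest in state 4, Slc40a1 is at 13.4 to 19.0 CPM in ADAM and 11.3 to 15.2 CPM in AD in state 5, and Cp stands out in state 6, where AD 2 has only 9 cells.

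Slc40a1, which encodes ferroportin, the iron exporter, showed the widest fold between states 5 and 0 of the 9 members. It stood at 19.0 and 13.4 CPM in ADAM state 5 and at 15.2 and 11.3 CPM in AD state 5, against 98.5 and 68.0 CPM in ADAM state 0 and 112 and 92.0 CPM in AD state 0. The ranges of the states were far apart in both genotypes, and state 0 was 6.30-fold higher over the 4 libraries (5.06 to 8.13). The share of cells with a UMI followed the same order: 11.9% and 7.65% of ADAM state 5 cells and 9.09% and 9.0% of AD state 5 cells, against 42.4% and 32.2% of ADAM state 0 cells and 35.9% and 41.8% of AD state 0 cells. Median depth was greater in state 5 (6200 to 7883 UMIs) than in state 0 (4145 to 5904 UMIs). After each cell was thinned to 2000 UMIs the shares were 2.75% and 2.39% in ADAM state 5 and 2.83% and 2.97% in AD state 5, against 18.9% and 12.4% in ADAM state 0 and 19.1% and 16.9% in AD state 0. Among lymphocytes of the T and NK class, taken here as cells without ferroportin, 0.0978% to 1.18% of cells had a UMI at median depths of 2926 to 3548 UMIs.

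State 4, the state with the most ferritin mRNA, held Slc40a1 at an intermediate level, 48.3 and 44.1 CPM in ADAM and 44.4 and 31.1 CPM in AD. These sums rest on 8 to 21 UMIs per library. Slc40a1 in neutrophils stood at 0 and 114 CPM in ADAM and at 278 and 318 CPM in AD. ADAM 1 had 11 neutrophils, and none with a UMI allows a share of up to 28.5% (exact 95% binomial bound, counting error only). The class was not tested, since a set needed 20 cells in each library.

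Cp encodes ceruloplasmin, a copper ferroxidase that oxidizes the iron that ferroportin exports. Its high levels lay in small sets. In macrophages it stood at 159 and 57.3 CPM in ADAM and at 84.9 and 83.7 CPM in AD, and in state 6 at 192 and 184 CPM in ADAM and at 169 and 192 CPM in AD. In 40 endothelial cells it stood at 381 and 506 CPM in ADAM and at 157 and 0 CPM in AD, where 3 and 4 cells gave 1 Cp UMI in all. These ADAM cells also held 95279 and 38587 CPM of erythroid markers, against 0 in both AD libraries, and 0 and 19440 CPM of neutrophil markers, against 0 in both AD libraries, so the genotypes are not compared in this class. In states 0 and 5 it lay between 2.47 and 11.1 CPM in single libraries. State 6 had 130 cells, of which AD 2 gave 9, and the 3 cells with the most Cp UMIs held 32.5% to 87.5% of the count in each library. T and NK cells had a Cp UMI in at most 0.295% of cells, against 68.9% and 63.8% of ADAM state 6 cells and 46.7% and 55.6% of AD state 6 cells, whose median depth was 6423 to 9446 UMIs.

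**Figure D2:**
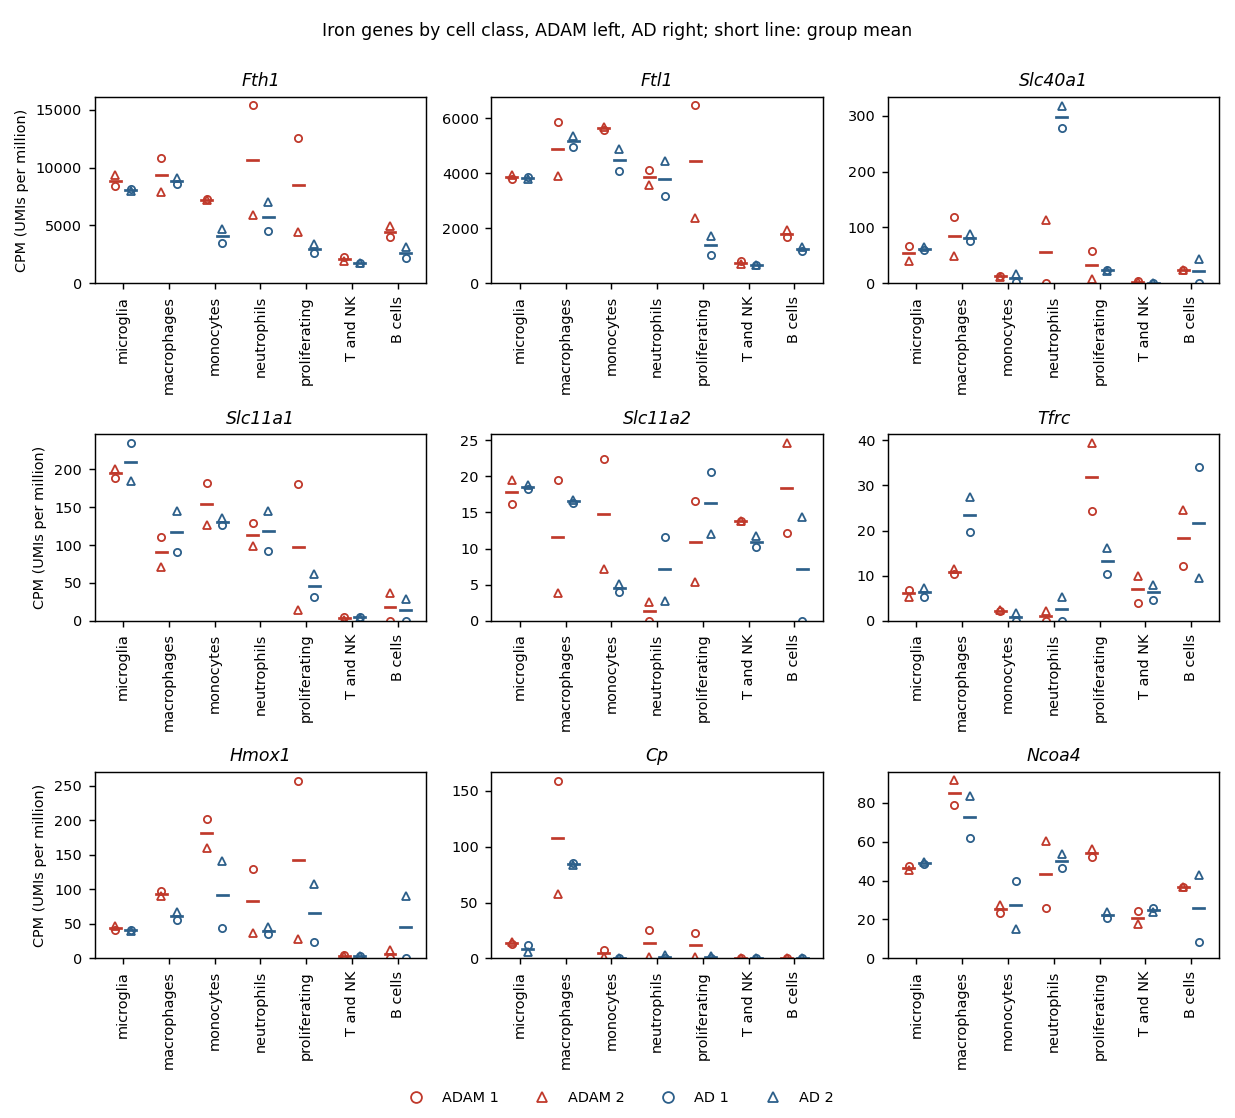
Level of each member in 7 cell classes in CPM (y axis, linear, own scale per gene), with ADAM libraries left of AD libraries, a point per library and a short line at the mean of 2. Cp and Ncoa4 are highest in macrophages and Slc40a1 in AD neutrophils. ADAM 1 gave 11 neutrophils and 17 B cells.

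Tfrc, the receptor that takes up iron bound to transferrin, was a low transcript in the 9 sets ordered. It stood at 6.73 and 5.38 CPM in ADAM microglia and at 5.24 and 7.37 CPM in AD microglia. Its mean over the 4 libraries was highest in proliferating cells, 22.5 ± 12.6 CPM (SD, n = 4), and macrophages, 17.2 ± 7.97 CPM (SD, n = 4), and these sets overlapped each other. In endothelial cells, where brain vessels take up iron, it stood at 167 and 84.4 CPM in ADAM and at 1726 and 246 CPM in AD, from 40 UMIs in all and with the erythroid RNA in ADAM given above. State 5 was lower than state 0 in all 4 libraries, with log2 differences of −1.32 and −0.24 in ADAM and −1.38 and −1.16 in AD.

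Slc11a1, a metal transporter of the phagosome and late endosome of macrophages, was higher in state 5 than in state 0 in every library. It stood at 267 and 255 CPM in ADAM state 5 and at 308 and 257 CPM in AD state 5, against 144 and 162 CPM in ADAM state 0 and 167 and 152 CPM in AD state 0. The difference was 1.73-fold over the 4 libraries (1.58 to 1.85). State 3 did not share it: Slc11a1 was 74.5 and 86.9 CPM there in ADAM and 102 and 79.2 CPM in AD, below state 0 in all 4 libraries, although ferritin mRNA was higher in state 3 than in state 0. T and NK cells held 1.49 to 5.12 CPM.

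Slc11a2, which carries iron out of endosomes after transferrin uptake, differed little between states 5 and 0. It stood at 15.0 and 18.6 CPM in ADAM state 5 and at 15.7 and 20.9 CPM in AD state 5, against 16.5 and 18.6 CPM in ADAM state 0 and 21.2 and 16.9 CPM in AD state 0. State 4 stood above both in all 4 libraries, at 43.7 and 39.2 CPM in ADAM and at 44.4 and 45.8 CPM in AD, 2.38-fold state 0 (2.10 to 2.72).

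Hmox1 encodes haem oxygenase 1, the stress-inducible enzyme that opens haem and frees its iron. State 4 had its highest mean level among the 9 sets ordered, 177 ± 64.4 CPM (SD, n = 4), followed by monocytes at 136 ± 67.0 CPM (SD, n = 4), and the ranges of these sets overlapped. State 5 held 48.1 and 49.2 CPM in ADAM and 48.0 and 49.98 CPM in AD, so all 4 libraries lay within a narrow span.

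**Figure D3:**
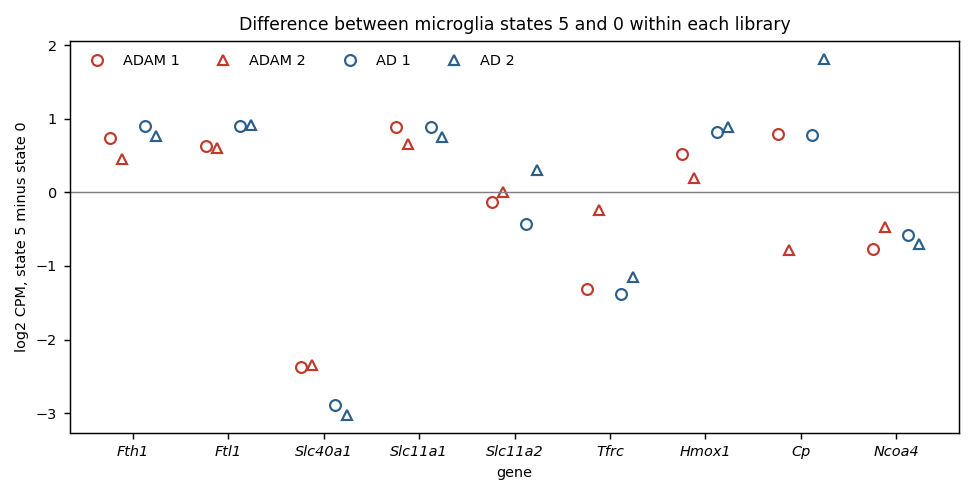
Difference between states 5 and 0 within each library for each member (x axis), as log2 CPM of state 5 minus that of state 0 (y axis), with ADAM libraries left of AD libraries. Fth1, Ftl1, Slc11a1 and Hmox1 are above 0 and Slc40a1, Tfrc and Ncoa4 below 0 in all 4 libraries, and Cp and Slc11a2 lie on both sides.

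The study's question is what the loss of the receptors does, and sums of UMIs per library were compared between genotypes with edgeR's quasi-likelihood test over all genes of a set. A gene is called here when its edgeR adjusted p is under 0.05. In microglia, 0 of the 9 members were called, beside 5 of 11924 genes (0.0419%). The count was also 0 of 9 in state 0 (0.101% of all genes tested), 0 of 4 in state 2 (0.0635%), 0 of 5 in state 3 (0.313%), 0 of 7 in state 4 (0.127%) and 0 of 9 in state 5 (0.153%). It was 0 of 8 in macrophages (0.0154%), 0 of 5 in monocytes (0.155%), 0 of 8 in proliferating cells (0.0842%) and 0 of 6 in T and NK cells (0.241%). Members that are missing from these counts were under the filter on low counts. DESeq2 and limma-voom called 0 members in each of the 10 sets, and the unadjusted edgeR p was under 0.05 for 2 members in state 0 (4.22% of all genes tested), 1 in state 4 (3.35%), 1 in monocytes (8.51%), 4 in proliferating cells (8.73%) and 1 in T and NK cells (5.2%). It was under 0.05 for 0 members in microglia (2.35%), state 2 (3.05%), state 3 (4.95%), state 5 (5.3%) and macrophages (2.21%). The p-values rest on the spread between pools of cortices, which edgeR moderates for each gene with the spread of other genes. With 2 libraries per genotype a miss of the threshold does not show that levels were alike.

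Over all microglia the members had a median fold near that of all genes tested, while single members, Cp most, lay further off. Their median log2 fold, ADAM over AD, was 0.0031 beside 0.0035 for all genes tested, and 3 of 9 had libraries that did not overlap between genotypes, 2 higher and 1 lower in ADAM, beside 8.26% higher and 20.3% lower over all genes tested. Fth1 had 8414 and 9326 CPM in ADAM microglia, against 8109 and 7964 CPM in AD microglia, a log2 fold of 0.20 with SE 0.14 and an edgeR adjusted p of 1. Slc40a1 had 67.3 and 39.8 CPM in ADAM microglia, against 58.7 and 65.4 CPM in AD microglia, a log2 fold of −0.16 with SE 0.24 and an edgeR adjusted p of 1. The Fth1 libraries did not overlap and the Slc40a1 libraries did. Overlap is read in CPM scaled to set totals, while log2 folds use TMM scaling. Without that scaling the median log2 fold of all genes in microglia was −0.050. Log2 folds of Ftl1, Slc11a1, Slc11a2, Tfrc, Hmox1 and Ncoa4 lay between −0.048 and 0.19. Ftl1 lies on chromosome 7, 19.67 Mb from Axl, so in each of its differences between genotypes linked alleles and the deletion cannot be told apart.

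Cp had the largest log2 fold of the members in microglia, 0.78 (SE 0.44, edgeR adjusted p = 1), from 12.5 and 14.8 CPM in ADAM and 12.1 and 5.39 CPM in AD. The libraries did not overlap, but ADAM 1 and AD 1 nearly met. Without AD 1 the log2 fold was 1.41, while without AD 2 it was 0.20. AD 1 is the library with choroid plexus RNA, which lay mainly in state 2, and without state 2 the log2 fold was 0.75. A sum over microglia moves both with the level in each state and with the share of cells in each state. The sum alone does not tell these apart. State 6, where Cp was high, gave 29 and 47 cells in ADAM and 45 and 9 in AD. Those cells held 52 and 83 Cp UMIs in ADAM and 53 and 16 in AD. The part of state 6 in the fold was not tested. State 5 gave 631 of 2317 and 771 of 2060 microglia in ADAM and 594 of 1600 and 722 of 3100 in AD.

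Within state 0, 5 of 9 members had libraries that did not overlap, 4 higher and 1 lower in ADAM, beside 8.71% higher and 27.9% lower over all genes tested. Hmox1 had 33.5 and 42.9 CPM in ADAM state 0, against 27.1 and 27.1 CPM in AD state 0, a log2 fold of 0.56 (SE 0.15, unadjusted p = 0.00262, edgeR adjusted p = 0.499). Cp had 6.41 and 9.84 CPM in ADAM state 0, against 4.56 and 2.47 CPM in AD state 0, a log2 fold of 1.44 (SE 0.34, unadjusted p = 0.00107, edgeR adjusted p = 0.293). In both, ADAM 2 was the highest library, and neither passed the adjusted threshold. Cp rests on 53 and 56 UMIs in ADAM and 17 and 34 UMIs in AD, and 3 cells held 70.6% of those in AD 1. The fit without ADAM 1 leaves 1 ADAM library, so the spread within ADAM does not enter it, and its p-values are not read here. The neutrophil markers summed to 12.95 and 675 CPM in ADAM state 0 and to 8.31 and 26.3 CPM in AD state 0, and their part in these differences was not tested. Leaving out cells with a haemoglobin UMI gave log2 folds of 0.58 for Hmox1 and 1.35 for Cp.

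The ferritin chains pointed the same way in state 0. Fth1 had 6245 and 7364 CPM in ADAM against 5192 and 5985 CPM in AD (log2 fold 0.37, SE 0.18, edgeR adjusted p = 0.998), and Ftl1 had 2961 and 3000 CPM in ADAM against 2548 and 2774 CPM in AD (log2 fold 0.25, SE 0.15, edgeR adjusted p = 0.998). Neither passed. Ncoa4 had 55.7 and 52.5 CPM in ADAM state 0 against 59.5 and 57.1 CPM in AD state 0, a log2 fold of −0.023. Without scaling beyond library totals the median log2 fold of all genes in state 0 was −0.071, wider than that of Ncoa4.

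In state 5, 0 of 9 members were higher and 1 was lower in ADAM without overlap, beside 17.4% higher and 16.3% lower over all genes tested. This was Ftl1, with 4600 and 4559 CPM in ADAM and 4780 and 5243 CPM in AD, a log2 fold of −0.14 with SE 0.12 and an edgeR adjusted p of 0.994.

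State 4 had the lowest log2 fold of Hmox1. It stood at 120 and 123 CPM in ADAM state 4, against 228 and 237 CPM in AD state 4, a log2 fold of −0.98 (SE 0.26, unadjusted p = 0.00145, edgeR adjusted p = 0.38). The genotypes were well apart and the replicate libraries close together, yet the cells are few: 44 and 23 in ADAM, 29 and 62 in AD. In AD 1, 26 of the 41 Hmox1 UMIs came from 3 cells, and in AD 2 it was 57 of 145, against 15 of 52 in ADAM 1 and 10 of 25 in ADAM 2. The share of cells with a Hmox1 UMI overlapped, at 61.4% and 60.9% in ADAM and 48.3% and 61.3% in AD. Of 7 members tested there, 2 had libraries that did not overlap, both lower in ADAM, beside 13% of all genes tested. The other was Slc11a2, with a log2 fold of −0.15. Neutrophil markers summed to 11.5 and 490 CPM in ADAM state 4 and to 22.2 and 730 CPM in AD state 4, high in 1 library of each genotype.

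**Figure D4:**
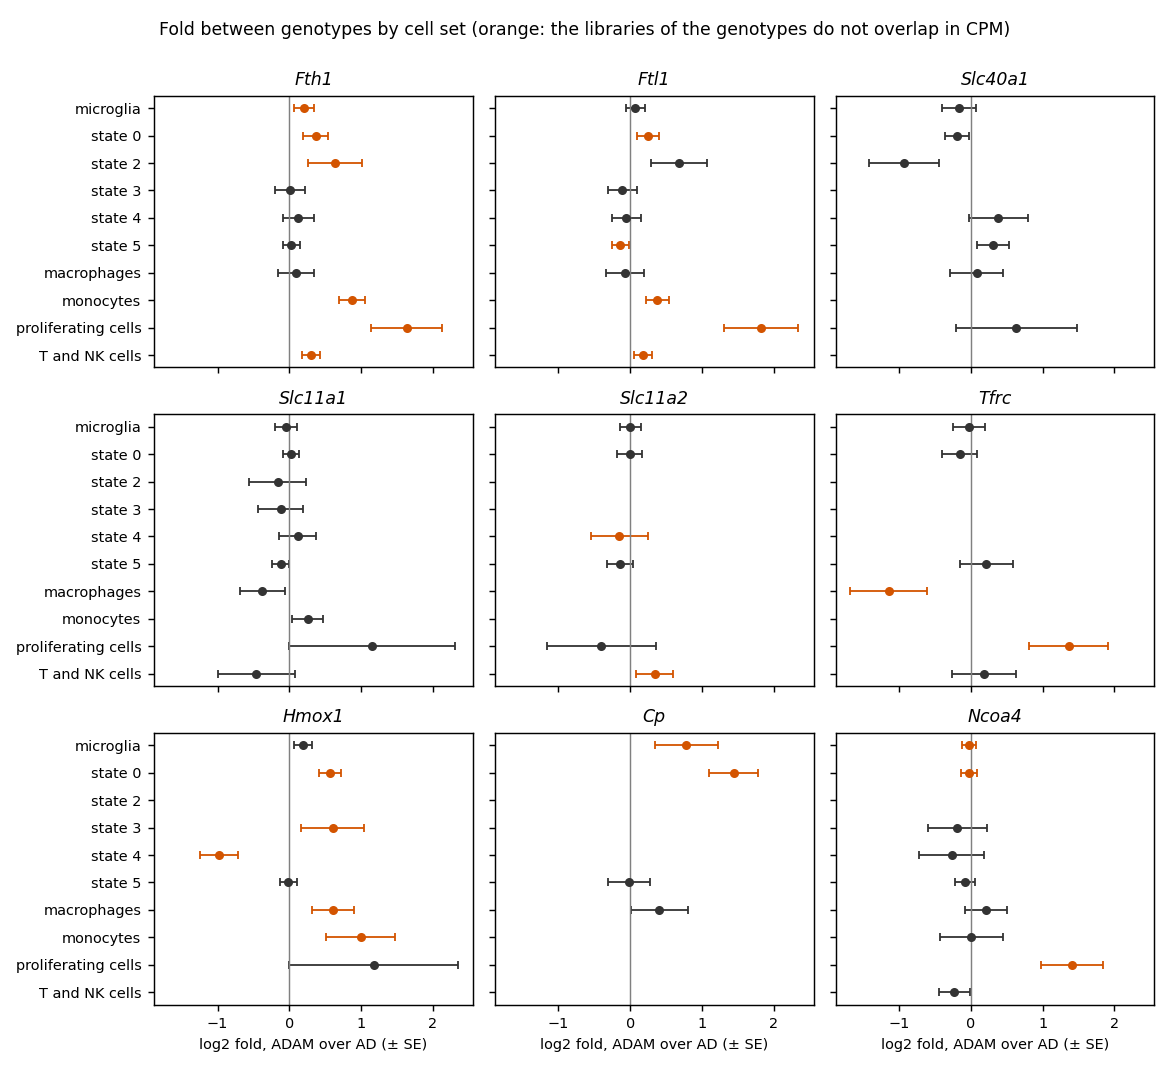
Log2 fold between genotypes, ADAM over AD (x axis, point with ± SE from edgeR), for each member in each cell set in which it passed the filter on low counts (y axis). Orange points mark sets in which the libraries of the genotypes do not overlap. Fth1 is at 0.88 in monocytes and 1.63 in proliferating cells, and Hmox1 is at −0.98 in state 4 and 0.56 in state 0. None has an edgeR adjusted p under 0.05.

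Whether the step between states depended on genotype was tested as an interaction, with library as a term. For states 5 and 0, 2 of the 9 members were called, Hmox1 and Cp, beside 1.04% of the 11132 genes tested. For Hmox1, log2 CPM of state 5 minus state 0 was 0.52 and 0.20 in ADAM libraries and 0.83 and 0.89 in AD libraries. The genotypes did not overlap, and the difference of the differences, ADAM minus AD, was −0.59 (SE 0.15, edgeR adjusted p = 0.0209). For Cp the values were 0.79 and −0.78 in ADAM libraries and 0.78 and 1.82 in AD libraries, with an interaction of −1.47 (SE 0.39, edgeR adjusted p = 0.0426). ADAM 1 and AD 1 were alike here, so the Cp genotypes overlapped. For both genes edgeR moderates the spread with that of other genes, so SE and p do not rest on these library differences alone. Both interactions use the state 0 sums, whose differences between genotypes are given above. In state 5 the log2 folds between genotypes were −0.017 for Hmox1 and −0.020 for Cp. Neither call held in all subsets of libraries. For Hmox1 the edgeR adjusted p was 0.166 without AD 1, 0.335 without AD 2, 0.519 without ADAM 2 and 0.00189 without ADAM 1. The log2 interaction of Hmox1 was −0.58 without AD 1, −0.60 without AD 2, −0.40 without ADAM 2 and −0.77 without ADAM 1. For Cp it was 0.733 without AD 2 and 0.727 without ADAM 2, while it was 0.00718 without AD 1 and 2.78e-05 without ADAM 1. The log2 interaction of Cp was −0.84 without AD 2, −0.73 without ADAM 2 and −2.35 without ADAM 1.

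The other 7 members were not called in this test. Slc40a1 had −2.37 and −2.34 in ADAM libraries against −2.88 and −3.02 in AD libraries, an interaction of 0.52 (SE 0.19, edgeR adjusted p = 0.22). Its genotypes did not overlap. Fth1 and Ftl1 had interactions of −0.34 and −0.39, with edgeR adjusted p of 0.508 and 0.29.

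The same test for states 4 and 0 was added after the Hmox1 levels had been seen. Hmox1 had log2 differences of 1.84 and 1.52 in ADAM libraries against 3.07 and 3.13 in AD libraries, an interaction of −1.51 (SE 0.30, edgeR adjusted p = 0.000513), beside 0.219% of 10066 genes called. The groups were well apart, and the SE and p are moderated in the same way. Without AD 2, which holds 145 of the state 4 UMIs of Hmox1, the edgeR adjusted p was 0.485 with a log2 interaction of −1.40. The 3 AD 1 cells that carry most of that library's Hmox1 count are in this value.

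In macrophages Hmox1 had 97.1 and 89.7 CPM in ADAM, against 55.5 and 67.0 CPM in AD, a log2 fold of 0.61 with SE 0.29 and an edgeR adjusted p of 1, and the libraries did not overlap. Tfrc had 10.3 and 11.5 CPM in ADAM macrophages, against 19.6 and 27.4 CPM in AD macrophages, a log2 fold of −1.15 with SE 0.54 and an edgeR adjusted p of 1. These were the 2 of 8 members tested there whose libraries did not overlap, beside 14.4% higher and 14.9% lower over all genes tested. ADAM 2 macrophages also held 13805 CPM of erythroid markers, against 1.14 CPM in ADAM 1 and 0 in both AD libraries, whose part was not tested.

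In monocytes all 5 members tested had a positive log2 fold, beside 3235 of 6460 genes tested. The median was 0.38 for the members and 0.00031 for all genes tested. Slc11a1 (0.26, SE 0.22) and Ncoa4 (0.0060, SE 0.44) had libraries that overlapped between genotypes. Fth1 had 7272 and 7205 CPM in ADAM monocytes, against 3465 and 4684 CPM in AD monocytes, a log2 fold of 0.88 (SE 0.18, unadjusted p = 0.00154, edgeR adjusted p = 0.155). Hmox1 had 202 and 160 CPM in ADAM monocytes, against 43.6 and 140 CPM in AD monocytes, a log2 fold of 0.995 with SE 0.48 and an edgeR adjusted p of 0.664. Both ADAM libraries lay above both AD libraries for each gene, and AD 1 was the lowest. Ftl1, at 5585 and 5692 CPM in ADAM monocytes and 4087 and 4884 CPM in AD monocytes, was the third of 5 members with both ADAM libraries above both AD libraries, beside 14.1% of all genes tested. Neutrophil markers summed to 4188 and 70952 CPM in ADAM monocytes and to 143 and 2045 CPM in AD monocytes. Fth1 in the neutrophils themselves was 15424 and 5881 CPM in ADAM and 4533 and 6990 CPM in AD. Of the 5 monocyte markers, 3 were lower in both ADAM libraries. Ly6c2 had 384 and 652 CPM in ADAM monocytes, against 2508 and 1446 CPM in AD monocytes, Ccr2 had 322 and 433 CPM in ADAM against 1016 and 654 CPM in AD, and Plac8 had 3874 and 3885 CPM in ADAM against 7332 and 6705 CPM in AD. The part of neutrophil RNA and of the make-up of the class in the member values was not tested. The log2 fold of Fth1 was 0.79 without ADAM 2 and 0.98 without ADAM 1.

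In proliferating cells, a class of mixed lineages with 193 cells, 4 of 8 members had libraries that did not overlap, all higher in ADAM, beside 13.7% of all genes tested. Fth1 had 12516 and 4402 CPM in ADAM, against 2629 and 3375 CPM in AD, a log2 fold of 1.63 with SE 0.50 and an edgeR adjusted p of 0.357. Ncoa4 had 52.4 and 56.3 CPM in ADAM, against 20.6 and 24.1 CPM in AD, a log2 fold of 1.40 with SE 0.43 and an edgeR adjusted p of 0.357. The log2 fold of Fth1 was 0.71 without ADAM 1, its highest library, while the ADAM libraries lay close together for Ncoa4. Ftl1 and Tfrc had log2 folds of 1.82 and 1.36, and that of Ftl1 was 0.95 without ADAM 1. The lineages differed between libraries. T and NK cell markers summed to 676 and 670 CPM in ADAM and to 3247 and 1512 CPM in AD, and microglial markers to 3152 and 1065 CPM in ADAM and to 4414 and 4237 CPM in AD. Neutrophil markers summed to 112 and 18506 CPM in ADAM and to 3.43 and 174 CPM in AD, and brain macrophage markers to 272 and 189 CPM in ADAM and to 3.43 and 74.2 CPM in AD. How far the mix of lineages sets these folds was not tested. Fits without ADAM 1 or without ADAM 2 leave 1 ADAM library, so the spread within ADAM does not enter them. Their p-values are not read here.

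In T and NK cells, 3 of 6 members tested had libraries that did not overlap, all higher in ADAM, beside 15.4% of all genes tested. Fth1 had 2275 and 1941 CPM in ADAM, against 1737 and 1715 CPM in AD, a log2 fold of 0.30 with SE 0.13 and an edgeR adjusted p of 0.928. The others were Ftl1 and Slc11a2, with log2 folds of 0.18 and 0.34. Markers of other cells also differed: microglial markers summed to 410 and 311 CPM in ADAM T and NK cells and to 256 and 276 CPM in AD T and NK cells, and monocyte markers to 709 and 736 CPM in ADAM and to 552 and 440 CPM in AD. Neutrophil markers stood at 1726 CPM in ADAM 2, against 18.9 CPM in ADAM 1 and 11.1 and 35.8 CPM in AD. Their part in these folds was not tested.

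The other genes of iron and haem handling and of the oxidative stress response that shares targets with them formed a list of 57, of which 52 were in the table and 43 were tested in microglia. Of these, 0 were called by edgeR, DESeq2 or limma-voom, and 3 had an unadjusted edgeR p under 0.05. Their median log2 fold was 0.026, and 12 of 43 had libraries that did not overlap, 2 higher and 10 lower in ADAM, beside 8.26% higher and 20.3% lower over all genes tested. The 3 genes, named after their values were seen, belong to the oxidative stress response. Nfe2l2, which encodes the transcription factor NRF2, had 214 and 217 CPM in ADAM microglia, against 294 and 294 CPM in AD microglia, a log2 fold of −0.39 with SE 0.12 and an edgeR adjusted p of 1. Srxn1 (sulfiredoxin) and Txnrd1 (thioredoxin reductase) had log2 folds of −0.91 and −0.31. Nfe2l2 lies on chromosome 2, which also carries Mertk, 52.99 Mb away, so for this gene linked alleles and the deletion cannot be told apart. The genes with the widest log2 fold in microglia were Lcn2 (lipocalin 2, 3.60) and Hp (haptoglobin, 1.34), both also neutrophil genes. Lcn2 had 0.680 and 16.9 CPM in ADAM microglia and 0.699 and 0.783 CPM in AD microglia, so that ADAM 2, the library with neutrophil RNA, stood alone.

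In state 4 the listed genes named here are from those lower in ADAM without overlap, as Hmox1 was, and those higher are only counted. Gclm, a subunit of the enzyme that starts glutathione synthesis, had 96.7 and 118 CPM in ADAM state 4, against 222 and 191 CPM in AD state 4, a log2 fold of −0.99 (SE 0.28, unadjusted p = 0.00227, edgeR adjusted p = 0.489). Gclc, the catalytic subunit, had 32.2 and 34.3 CPM in ADAM state 4, against 61.1 and 94.9 CPM in AD state 4 (log2 fold −1.38, SE 0.39, edgeR adjusted p = 0.489). Srxn1 and Nfe2l2 had log2 folds of −0.99 and −0.75 there, with libraries that did not overlap. Of the 21 listed genes tested in state 4, 4 were higher and 9 lower in ADAM without overlap, beside 17.4% and 13% of all genes tested. None was called, and the genes were named after their values were seen.

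**Figure D5:**
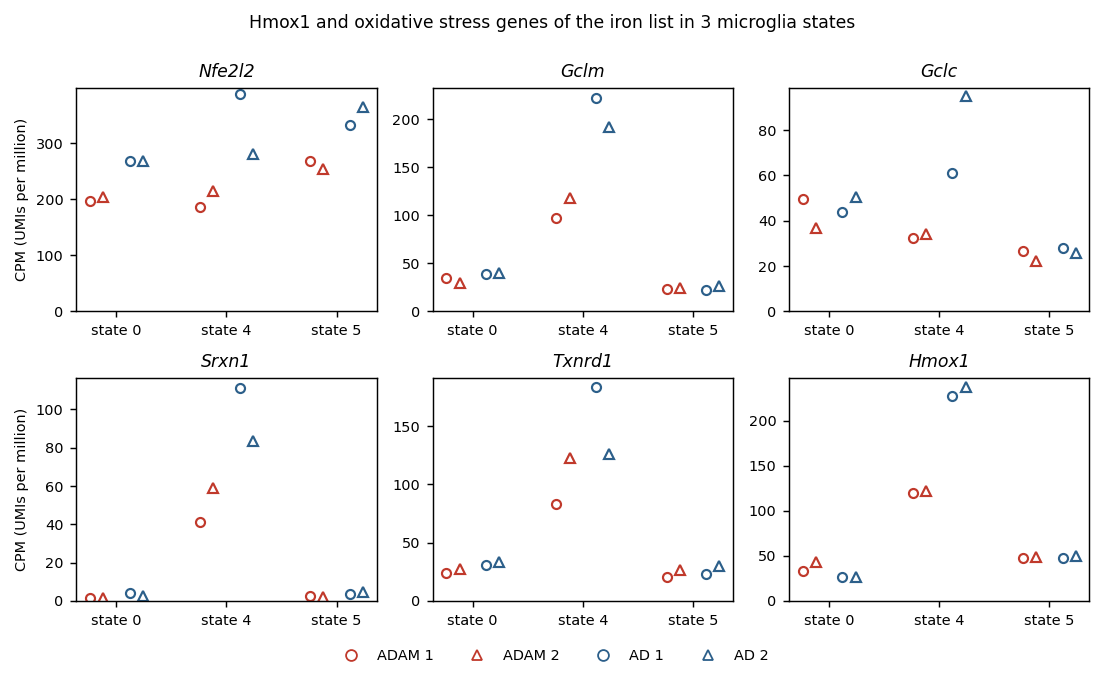
Level in CPM (y axis, linear, own scale per gene) of Hmox1 and 5 oxidative stress genes of the list in states 0, 4 and 5 (x axis), with ADAM libraries left of AD libraries and a point per library. In state 4 Hmox1 is at 120 and 123 CPM in ADAM and 228 and 237 CPM in AD, and Gclm at 96.7 and 118 CPM in ADAM and 222 and 191 CPM in AD, while the state 5 values of Hmox1 overlap.

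Across sets, each member had neighbours of similar pattern among 7515 genes. The measure was the Pearson correlation of log2 CPM over 36 sums, 9 sets in each of 4 libraries, which share libraries and depth, so it is a description without a test. Fth1 and Ftl1 were each other's nearest gene (r = 0.945), followed by the copy Ftl1-ps1 (0.904 and 0.943). Slc11a1 was nearest to Atp6v0b (0.968), a subunit of the proton pump, then Cln8 (0.960) and Lamp2 (0.957), a lysosomal membrane protein. Slc40a1 was nearest to P2ry6 (0.932), Abca1 (0.928), a cholesterol exporter, and Spred1 (0.925). Cp was nearest to Dab2, Sdc4 and Vcam1 (0.840 to 0.891), and Hmox1 to Tubb6, Lyz2 and Bcl2a1a (0.855 to 0.869). For the low or flat members the nearest genes were less close, with Rmi1 at 0.755 for Slc11a2, Parp1 at 0.743 for Tfrc and Srek1ip1 at 0.756 for Ncoa4. Between members, Hmox1 correlated with Ftl1 at 0.828 and Slc40a1 with Cp at 0.773, whereas Tfrc and Ftl1 stood at −0.0017.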

How the data were processed

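The authors deposited raw UMI counts per gene and cell, without normalization, and a table of cells with library, class, microglia state and doublet marks. Per the labels' protocols, cortices were digested, cleared of debris on Percoll and sorted for CD45, and libraries were 10x Genomics 3′ libraries. Of software, the submitters' processing notes list Seurat 3.2.1.9002 and Cell Ranger 3.1.0, with mm10 as the build, and give no role for any. The percent of mitochondrial UMIs, the doublet score and the map coordinates (a score without unit) that the authors deposited were not used.

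Counts were summed per library and class or state, leaving out 823 cells marked as doublets, and libraries were the replicates (2 against 2, each from 2 pooled cortices). Where every library held 20 cells or more of a set, the set was tested in edgeR 4.0.16 (R 4.3.3): TMM scaling, expression filter at a minimum count of 10, robust quasi-likelihood fit, genotype as the only term, Benjamini-Hochberg adjustment over all genes of the set, threshold 0.05. The interaction of state and genotype had library as a term. Log2 folds are ADAM over AD, the standard error (SE) is the fold divided by the root of the F statistic, and CPM values are scaled to the set's total only. Depth in microglia was 8580653 to 21704070 UMIs per library. Shares of cells carry exact 95% binomial intervals in the tables, which cover counting error only, and thinning to 2000 UMIs left out 855 microglia.

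The rule for named genes took all 9 members, listed iron genes that passed a test between genotypes (none did), the 2 listed genes with the largest absolute log2 fold in microglia, and for each member the 3 genes of highest correlation. The 5 stress genes in the text were named after their values were seen. Patterns were compared over genes whose mean log2 CPM was 3 or more, with 0.5 UMI added to each sum. The members and lists were chosen with earlier results of these data known. Alternatives were DESeq2 1.42.0 and its size factors, limma-voom (limma 3.58.1), no filter, leaving out each library, a replicate block, and other choices of cells, and 4 more were chosen after seeing the data: no scaling, a crossed block, states 0 and 5 without haemoglobin cells, and the test of states 4 and 0 for Hmox1. The fits were tested on simulated data. Hairpins were searched with Python 3.11.15 in GENCODE vM21 transcripts.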

Additional observations from a re-analysis of the deposited data

Results flagged for a closer look

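A test of the difference between states by genotype set these results apart: Hmox1, with a state 5 minus state 0 difference that was 0.59 lower on the log2 scale in ADAM than in AD (interaction −0.59, edgeR adjusted p = 0.0209), Cp in the same test (interaction −1.47, edgeR adjusted p = 0.0426), and Hmox1 for state 4 minus state 0 (interaction −1.51, edgeR adjusted p = 0.000513, chosen after the levels were seen). Over their alternatives the edgeR adjusted p ran 0.00189 to 0.519 for Hmox1 in the first test, 2.78e-05 to 0.733 for Cp, and 0.000192 to 0.485 for Hmox1 in the last.

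Other members had ADAM libraries all on one side of the AD libraries in one cell set and on the opposite side in another. Hmox1 was lower in ADAM in state 4 (log2 fold −0.98) and higher in state 0, state 3, macrophages and monocytes, of which the step to state 0 is the test above and the others were not tested. Ftl1 was lower in ADAM in state 5 (−0.14) and higher in state 0, monocytes, proliferating cells and T and NK cells; states 5 and 0 did not pass the test of their difference (edgeR adjusted p = 0.29), and the others were not tested. Tfrc was lower in macrophages (−1.15, SE 0.54) and higher in proliferating cells. Slc11a2 was lower in state 4 (−0.15, SE 0.40) and higher in T and NK cells. Ncoa4 was lower in state 0 (−0.023, SE 0.11) and higher in proliferating cells. For these 3 genes the difference between sets was not tested. Overlap was read in CPM without TMM scaling. In state 0 the median log2 fold of all genes was −0.071 without scaling and 0.0060 with TMM. The part of this offset in the place of Ncoa4 was not tested. Of all genes tested, 27.9% were lower in ADAM without overlap in state 0, 13% in state 4, 16.3% in state 5 and 14.9% in macrophages. Those higher were 8.71% in state 0, 14.4% in macrophages, 14.1% in monocytes, 13.7% in proliferating cells and 15.4% in T and NK cells. In state 3, 537 of 3191 genes were higher.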

How the results depend on the processing

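Calls of members between genotypes were 0 in each of the 10 sets under DESeq2, limma-voom, DESeq2 size factors, no scaling, the replicate block and the crossed replicate block, and in microglia also without state 2, without haemoglobin cells, with T cell doublets and after thinning. Without the filter on low counts 2 members were called in state 0 (Hmox1, Cp), 2 in monocytes (Fth1, Hmox1) and 2 in proliferating cells (Fth1, Ftl1). Leaving out each library in turn gave 0 to 1 called members in microglia, 0 to 3 of the other iron genes (3 without ADAM 1), 0 to 2 members in state 0, 0 to 1 in monocytes, 0 to 5 in proliferating cells and 0 to 2 in the interaction of states 5 and 0. The lone library of a genotype is then assumed to vary like the pair of the other. The cause of these moves was not tested. Replicate numbers of the titles are not said to pair libraries, and the deviations of same-numbered libraries in microglia correlated at −0.22, so the replicate block (0 members called, in microglia Slc40a1 −0.21 and Cp 0.82) and the crossed block are given here only.

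Folds near 0 changed sign in microglia. Slc11a2 (0.0031) was −0.00039 with DESeq2 size factors, −0.011 with limma-voom, −0.053 without scaling, −0.014 with the crossed replicate block, −0.0044 without haemoglobin cells and −0.24 thinned, and ran −0.17 to 0.16 over the left-out libraries. Slc11a1 was 0.031 thinned and ran −0.23 to 0.15, Slc40a1 ran −0.56 to 0.14 and Tfrc −0.21 to 0.24. Interactions of states 5 and 0 ran −0.27 to 0.014 for Slc11a1, −0.43 to 0.24 for Slc11a2, −0.15 to 0.88 for Tfrc and −0.18 to 0.073 for Ncoa4. Of 381 values of 31 folds, 350 kept direction and side of the threshold. With 2 libraries a genotype, low members such as Tfrc (45 to 160 microglial UMIs a library) are limited by depth.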

Other observations

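Cells outside the comparisons carried the same genes. In the 823 cells marked as doublets Fth1 averaged 8946 ± 429 CPM in ADAM and 7653 ± 1338 CPM in AD, and Hmox1 77.4 ± 22.2 CPM in ADAM and 43.9 ± 16.5 CPM in AD (SD, n = 2 each). B cells, 115 in all, held Fth1 at 3970 and 4972 CPM in ADAM and at 2175 and 3130 CPM in AD, and had no Cp UMI in any library. State 1, whose AD 1 share was 19 cells, held Fth1 at 7360 and 7727 CPM in ADAM and at 5928 and 5743 CPM in AD.

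Within a state, ferritin varied among cells. The median share of a cell's UMIs that Fth1 took in state 5 was 0.992% and 0.951% in ADAM and 0.930% and 0.978% in AD, and in state 0 it was 0.576% and 0.690% in ADAM and 0.450% and 0.547% in AD. The top decile of state 0 cells began at 0.953% and 1.14% in ADAM and at 0.846% and 0.946% in AD, so cells of the states overlapped.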
